A study of Mus musculus with 15 samples.

Results

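The SoxF transcription factors are Sox7, Sox17 and Sox18, 3 of the 45706 genes in the deposited expression table, and they were taken by symbol. All 3 passed the filter on low counts that left 17650 genes for testing. Their transcripts were measured by poly-A RNA sequencing in lymphatic endothelial cells (LECs), which line lymphatic vessels and the sinuses of lymph nodes. The cells came from lymph nodes of female C57Bl/6 mice, whose age the labels do not give, and were selected as Pdpn+ CD31+ CD45-. Nodes of several sites (popliteal, inguinal, cervical, brachial, axillary) were pooled. All groups grew in MEMα with 10% FBS. The unstimulated group received no VEGF-C. The others were exposed for 72 h to murine VEGF-C, a recombinant protein made in HEK-293E cells, at 10 or 100 ng/mL. Each group had 5 libraries, lettered A to E, and the labels do not say that these came from separate cultures, so every p-value here speaks of the spread among libraries alone, and that spread may be technical.

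SoxF proteins bind DNA through an HMG box, a domain that recognises a short AT-rich motif and bends the helix. In endothelium they partly stand in for one another: Sox18 acts on Prox1, the master regulator of lymphatic fate, when lymphatic cells first arise, Sox17 is known for its role in arteries, and Sox7 takes part in blood vessel formation. VEGF-C acts mainly through the receptor Flt4 (VEGFR-3) and, once processed, also through Kdr (VEGFR-2), both of which feed the ERK kinase cascade.

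The cells carried endothelial RNA throughout. Pecam1, which encodes CD31, was at 1441 to 1969 CPM (read counts after TMM scaling to equal library sizes), and Ptprc, which encodes CD45, at 1.57 to 6.95. Of the 8 lymphatic markers checked, Flt4 averaged 615 CPM in unstimulated cells, Nrp2 447, Prox1 242.5, Pdpn 102, Lyve1 99.6 and Reln 0.433. The remaining markers, Mmrn1 and Ccl21a, were at or near 0, at no more than 0.0311 and 0.131 CPM. Almost no reads were thus counted on these defining genes, and how reads matching several genes were counted is not known. The leading principal component (64.8% of the variance) parted the 100 ng/mL libraries from the other 10. Library E without VEGF-C, D at 10 ng/mL and B at 100 ng/mL lay away from their groups on the first or second component, and results were recomputed without these 3.

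The 3 genes lie on different chromosomes (GENCODE M21, GRCm38). Sox18 (ENSMUSG00000046470) is at chromosome 2, positions 181669836 to 181671640 on the minus strand, with 1 annotated transcript of 2 exons. Sox7 (ENSMUSG00000063060) is at chromosome 14, positions 63943673 to 63950732 on the plus strand, also with 1 transcript of 2 exons. Sox17 (ENSMUSG00000025902) is at chromosome 1, positions 4490931 to 4497354 on the minus strand, with 8 transcripts of 1 to 5 exons. Its upstream end is overlapped by the antisense transcript Gm37587, which averaged 0 CPM in the unstimulated and 100 ng/mL groups.

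The family resemblance is visible in the coding sequence of the HMG box. The next lines give the stretch of 100 coding bases in which Sox18 (chr2:181670889-181670988, minus strand) and Sox17 (chr1:4492561-4492660, minus strand) match best, with the matching stretch of Sox7 (chr14:63947763-63947862, plus strand), each read 5′ to 3′ from the GENCODE M21 transcripts. They are shown because reads from such stretches are the ones a read counter could misplace between members. Capitals mark bases that differ from Sox18.
Sox18: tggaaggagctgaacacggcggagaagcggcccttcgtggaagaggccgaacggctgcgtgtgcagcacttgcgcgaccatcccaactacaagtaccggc
Sox17: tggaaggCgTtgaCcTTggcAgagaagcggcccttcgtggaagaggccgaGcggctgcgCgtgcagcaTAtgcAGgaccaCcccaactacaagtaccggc
Sox7: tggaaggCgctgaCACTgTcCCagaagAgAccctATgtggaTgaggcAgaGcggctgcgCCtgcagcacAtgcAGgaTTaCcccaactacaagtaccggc
Sox17 differed from Sox18 at 13 of these bases and Sox7 at 23. The longest stretch identical in Sox17 and Sox18 anywhere in their transcripts was 29 bases, against 22 for Sox17 and Sox7 and 20 for Sox18 and Sox7. The sources used here do not say how reads that match several genes were counted.

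Sox18 was by far the most abundant SoxF transcript in these cells, Sox7 came next, and Sox17 was scarce. On the RPKM scale, which divides by gene length and so allows levels of different genes to be compared, Sox18 averaged 69.4 RPKM in unstimulated cells, 80.7 at 10 ng/mL and 121 at 100 ng/mL. These levels placed it at rank 313, 246 and 149 among the 17650 tested genes. Sox7 averaged 23.2, 24.0 and 21.8 RPKM, at rank 1496, 1383 and 1603. Sox17 averaged 0.587, 0.669 and 1.10 RPKM, at rank 13612, 13272 and 11986. The order Sox18, Sox7, Sox17 held in 15 of 15 libraries, and no 2 of the genes overlapped in level in any group. The Sox18 level was 3.00 ± 0.403 times that of Sox7 in unstimulated libraries (SD, n = 5), 3.36 ± 0.416 times at 10 ng/mL and 5.75 ± 1.47 times at 100 ng/mL. Sox17 was so much lower that reads of Sox18 or Sox7 placed on it would weigh heavily in its value, and whether any were was not tested.

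**Figure D1:**
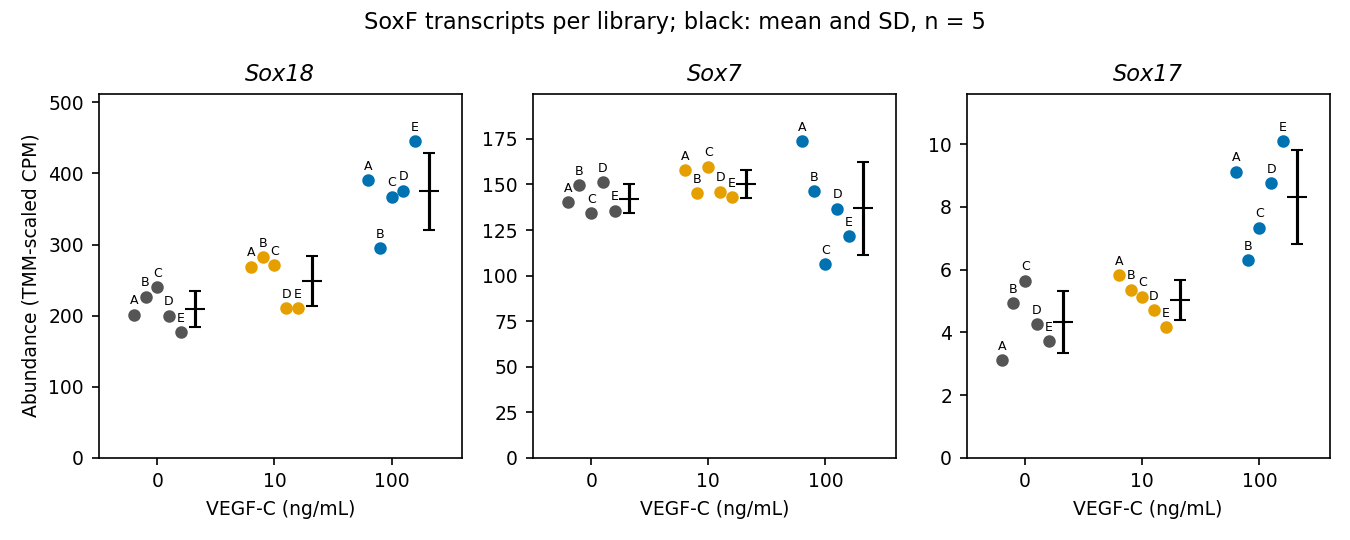
Abundance of Sox18, Sox7 and Sox17 (CPM, each panel on its own axis from 0) against VEGF-C dose; points are libraries A to E and black marks are mean and SD. Sox18 and Sox17 of the 100 ng/mL group lie above every library of the other groups, at 295 to 445 and 6.31 to 10.104 CPM, while Sox7 spreads from 106 to 174 CPM at that dose.

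Sox18 transcript was higher at 100 ng/mL of VEGF-C. Unstimulated libraries A to E held 201, 227, 240.3, 200.1 and 177 CPM of Sox18. The 10 ng/mL libraries held 269, 282, 271, 211 and 210.0 CPM, and the 100 ng/mL libraries 390.3, 295, 367, 375 and 445 CPM. All 5 libraries at 100 ng/mL thus lay above both other groups, although B came close to the top of the 10 ng/mL group. Sox18 rose by 0.84 ± 0.12 on the log2 scale (SE) against unstimulated cells, a 1.79-fold rise with a 95% interval of 1.504 to 2.14 (edgeR quasi-likelihood test, adjusted p = 4.58e-05). It rose by 0.59 ± 0.12, or 1.51-fold, against 10 ng/mL (edgeR, adjusted p = 0.00101). These comparisons share the 100 ng/mL libraries.

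At 10 ng/mL the Sox18 libraries fell into a higher and a lower set. Libraries A, B and C lay above all unstimulated libraries, while D and E lay within their range. Each unstimulated library held less Sox18 than the 10 ng/mL library it correlated best with over all genes (matches given at the end). The same held for Sox7, and for Sox17 in all but unstimulated C. The labels do not give these matches, and differences within them were not tested. The log2 difference from unstimulated was 0.25 ± 0.12, which did not pass the test (edgeR, adjusted p = 0.969). Its 95% interval of -0.0026 to 0.50 spans no difference and a 1.42-fold rise.

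Sox17 transcript was also higher at 100 ng/mL, from a low base. Unstimulated libraries A to E held 3.12, 4.92, 5.64, 4.27 and 3.71 CPM of Sox17. The 10 ng/mL libraries held 5.82, 5.36, 5.14, 4.70 and 4.17 CPM, and the 100 ng/mL libraries 9.12, 6.31, 7.34, 8.76 and 10.104 CPM. As for Sox18, the highest dose stood clear of both other groups and library B was its lowest. Sox17 rose by 0.95 ± 0.16 on the log2 scale against unstimulated cells, or 1.93-fold with a 95% interval of 1.52 to 2.44 (edgeR, adjusted p = 0.000245). The rise over 10 ng/mL was 0.72 ± 0.16, or 1.65-fold (edgeR, adjusted p = 0.0021). At 10 ng/mL 1 of 5 libraries exceeded the unstimulated maximum and the log2 difference of 0.22 ± 0.16 did not pass the test (edgeR, adjusted p = 0.969).

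Sox7 transcript did not pass the test in any comparison. Unstimulated libraries A to E held 140.3, 149.6, 134, 151 and 136 CPM of Sox7. The 10 ng/mL libraries held 158, 145, 159.8, 146 and 143 CPM, and the 100 ng/mL libraries 174, 146, 106, 137 and 122 CPM. The groups overlapped, and the 100 ng/mL group was the most spread, with a SD of 25.6 CPM against 7.91 in unstimulated cells and 7.82 at 10 ng/mL. Its library A was the highest of all 15 and its libraries C and E were the lowest. The log2 difference at 100 ng/mL was -0.05 ± 0.10 against unstimulated cells (edgeR, adjusted p = 0.701), with a 95% interval of 0.831 to 1.12-fold. The difference from 10 ng/mL was -0.13 ± 0.10 (edgeR, adjusted p = 0.308). Without library A of the 100 ng/mL group that difference was -0.24 and passed the test (edgeR, adjusted p = 0.0361). At 10 ng/mL the log2 difference from unstimulated cells was 0.08 ± 0.10 (edgeR, adjusted p = 0.969).

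These member counts stand against a wide response of the whole transcriptome. At 100 ng/mL against unstimulated cells 42.9% of the tested genes passed the test, and 21.4% of the tested genes passed it upward. Of the SoxF genes 2 of 3 passed, both upward. For 100 against 10 ng/mL the shares were 40.5% in either direction and 19.9% upward, again with 2 of 3 SoxF genes upward. Groups that did not overlap, with the higher values at 100 ng/mL, were found for 13.5% of genes against unstimulated cells and for 12.7% against 10 ng/mL. Between 10 ng/mL and unstimulated cells the groups did not overlap for 1.31% of genes (0.878% upward) and for none of the 3 SoxF genes. In that comparison 0 genes passed in edgeR (0%), with 844 genes at an unadjusted p under 0.05, while the DESeq2 Wald test called 10 genes and limma-voom 0. No SoxF gene passed there in any of these tools, and DESeq2 gave no adjusted p for Sox17. In bulk RNA, fewer cells of a type and less RNA per cell cannot be told apart.

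The balance between the members shifted at the highest dose. The Sox17 to Sox7 ratio of RPKM values ran from 0.0184 to 0.0350 in unstimulated libraries, from 0.0242 to 0.0308 at 10 ng/mL and from 0.0358 to 0.0691 at 100 ng/mL. The mean log2 ratio was 1.03 higher at 100 ng/mL than in unstimulated cells and 0.87 higher than at 10 ng/mL (exact two-sided permutation test, adjusted p = 0.0179 for each over 9 tests). The Sox7 to Sox18 ratio ran from 0.274 to 0.377 in unstimulated libraries, from 0.253 to 0.341 at 10 ng/mL and from 0.134 to 0.244 at 100 ng/mL. Its mean log2 value was lower at 100 ng/mL, by -0.91 against unstimulated cells and by -0.74 against 10 ng/mL (exact permutation test, adjusted p = 0.0179 for each). In these 4 tests the groups did not overlap, and the unadjusted p of 0.00794 was the smallest that 5 against 5 libraries can give. So the response of Sox7 differed from those of Sox17 and Sox18 by a test of the difference itself.

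The Sox17 to Sox18 ratio showed no such shift. It lay between 0.00631 and 0.00960 in unstimulated libraries, 0.00775 and 0.00913 at 10 ng/mL and 0.00817 and 0.00956 at 100 ng/mL. The log2 ratio differed by 0.12 between 100 ng/mL and unstimulated cells (exact permutation test, p = 0.397, adjusted p = 0.446) and by 0.12 between 100 and 10 ng/mL (p = 0.0873, adjusted p = 0.157). With a pseudocount of 1 RPKM added, which weighs on the low Sox17 values, these differences became -0.39 (adjusted p = 0.0179) and -0.25 (adjusted p = 0.0357). The 3 ratio differences between 10 ng/mL and unstimulated cells were 0.16, -0.17 and -0.01, in the order Sox17 to Sox7, Sox7 to Sox18 and Sox17 to Sox18, and none passed (exact permutation test, adjusted p = 0.446, 0.274 and 0.984).

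**Figure D2:**
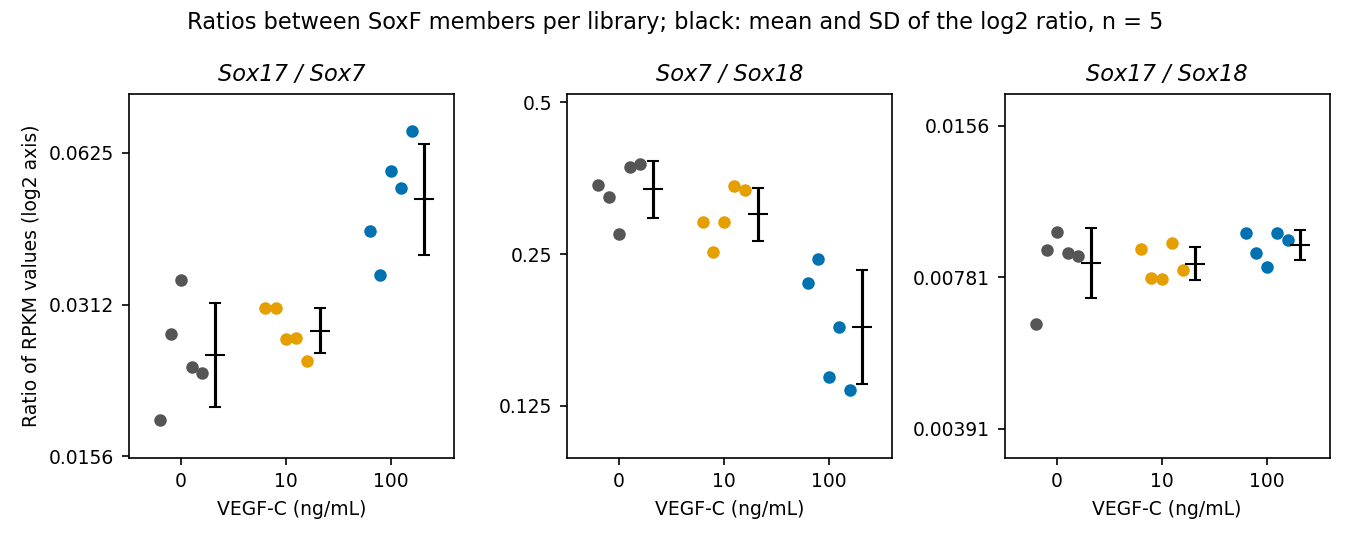
Ratios of RPKM values between SoxF members in each library (log2 axes of equal span) against VEGF-C dose, with mean and SD of the log2 ratio in black. At 100 ng/mL the Sox17 to Sox7 ratio lies above and the Sox7 to Sox18 ratio below all other libraries, while the Sox17 to Sox18 ratio overlaps between all groups.

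Summed over the 3 genes, SoxF transcript amounted to 93.2 ± 7.41 RPKM in unstimulated libraries (SD, n = 5), 105.3 ± 12.4 at 10 ng/mL and 144 ± 18.0 at 100 ng/mL. Sox18 made up 74.3 ± 2.32% of that sum in unstimulated cells, 76.4 ± 2.15% at 10 ng/mL and 84.0 ± 3.34% at 100 ng/mL. Sox7 made up 25.1 ± 2.37, 23.0 ± 2.14 and 15.3 ± 3.36%, and Sox17 0.627 ± 0.102, 0.635 ± 0.0415 and 0.760 ± 0.0526%. Computed from estimated counts, which are not divided by length, Sox7 made up 40.1, 37.4 and 26.5% and Sox17 1.21, 1.25 and 1.59%. The sum at the highest dose was thus almost wholly Sox18 and Sox7, with a larger Sox18 part.

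Sox17 and Sox18 also went together from library to library. Their log2 CPM had a Pearson r of 0.955 over the 15 libraries, and 0.819 after each group's mean was taken off. For Sox7 the same values were -0.176 and 0.118 with Sox17, and -0.235 and -0.015 with Sox18. These are descriptions only, since the genes of a library share its depth and scaling. Over the 15 libraries, Flt4, Kdr and Cdh5 had an r of 0.922, 0.919 and 0.901 with Sox18. After group means were taken off, they had 0.600, 0.518 and 0.485. The Sox17 to Sox18 ratio varied by about 10% over the 15 libraries (coefficient of variation), although Sox17 itself varied by 34.5% and Sox18 by 28.8%. Ratios with Sox7 varied by 41.6% for Sox17 and 28.6% for Sox18.

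**Figure D3:**
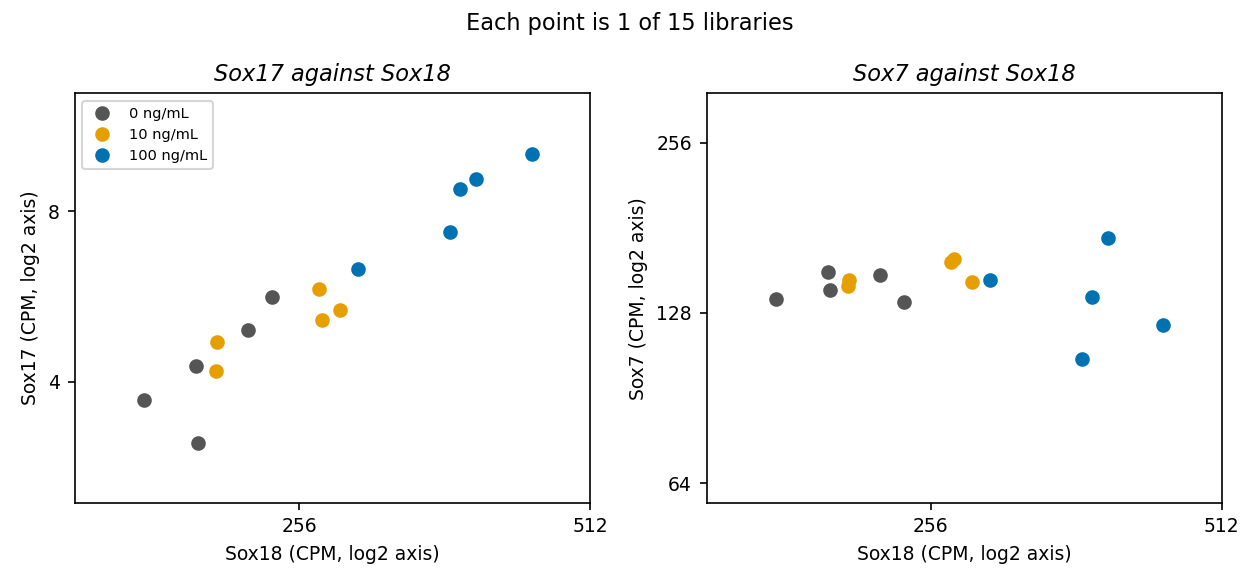
Abundance of Sox17 (left) and Sox7 (right) against Sox18 in 15 libraries (CPM, log2 axes of equal span), coloured by dose. Sox17 follows Sox18 across and within doses, whereas Sox7 stays between 106 and 174 CPM over the whole range of Sox18.

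Other Sox transcripts went with this pair to differing degrees. After group means were taken off, Sox1, Sox10, Sox14, Sox15 and Sox21 had r values with Sox17 of 0.798, 0.802, 0.773, 0.862 and 0.759, and with Sox18 of 0.576, 0.476, 0.639, 0.633 and 0.532. Each averaged 2.13 CPM or less in every group. In the annotated transcripts Sox1, Sox10, Sox15 and Sox21 shared a run of 28 identical bases with Sox18, and Sox14 one of 16. With Sox17 their longest shared runs were 17, 14, 13 and 22 bases, and that of Sox14 was 22. Of the remaining tested Sox genes, Sox5 had an r of 0.754 with Sox18 and a shared run of 20 bases. The same values were 0.741 and 18 for Sox4, 0.561 and 27 for Sox11, and 0.523 and 17 for Sox13. They were 0.225 and 17 for Sox8, 0.173 and 27 for Sox9, 0.048 and 12 for Sox6, and -0.099 and 20 for Sox12. The part of reads placed on more than 1 Sox gene in these values, and in that of Sox17, was not tested, so the Sox17 level is uncertain.

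Markers of other cells moved with the dose at which Sox17 and Sox18 were higher. The summed CPM of 14 fibroblastic and mural markers was 2029 to 3621 in unstimulated libraries, 1602 to 3548 at 10 ng/mL and 157 to 587 at 100 ng/mL, and 11 of the 12 tested were lower there than in unstimulated cells. The sum of 12 leukocyte markers was 50.02 to 144, 42.7 to 118 and 17.4 to 39.8 CPM, with 9 of 10 tested lower. The sum of 8 lymphatic markers was 1293 to 1675, 1602 to 1804 and 2478 to 5125 CPM, with 4 of 6 tested higher and 0 lower. For 12 pan-endothelial markers it was 10380 to 11510, 10650 to 12320 and 10820 to 13630 CPM, with 8 of 12 higher and 3 lower, and for 9 blood endothelial markers 2094 to 2710, 1928 to 2718 and 2410 to 2643 CPM, with 3 higher and 2 lower. The 9 epithelial markers summed to 74.3 to 128.5, 60.5 to 83.6 and 30.1 to 56.3 CPM (1 of 6 tested higher, 4 lower). The 12 genes of RNA quality and handling summed to 6309 to 9476, 9668 to 12540 and 9260 to 13130 CPM (9 higher, 1 lower). Of all tested genes 21.4% were higher and 21.5% lower at 100 ng/mL than in unstimulated cells. The part of the marker shifts in the SoxF values was not tested. Within the 100 ng/mL group, library B was lowest for Sox18, Sox17 and the lymphatic sum and highest for the fibroblastic sum, and library C was lowest for Sox7 and highest for the lymphatic sum. Without B, unstimulated E and 10 ng/mL D, Sox18 differed from unstimulated cells by 0.86 (edgeR, adjusted p = 1.78e-05) and Sox17 by 0.98 (edgeR, adjusted p = 0.000436).

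Among the 17 other Sox genes listed, 13 were tested at 100 ng/mL against unstimulated cells, of which 7 rose, 3 fell and 3 did not pass. Their median log2 difference was 0.33 against 0.008 for all genes, of which 21.4% rose and 21.5% fell. Sox13, a SoxD factor and the most abundant of those that rose, went from 38.96 ± 1.76 to 65.5 ± 10.31 CPM, a log2 difference of 0.75 ± 0.09 (edgeR, adjusted p = 1.08e-05). Sox4, the only other Sox gene near Sox7 in level at 19.5 RPKM in unstimulated cells, went from 78.7 ± 5.34 to 86.4 ± 9.97 CPM and did not pass (edgeR, adjusted p = 0.375). Sox9, a SoxE factor of cartilage and duct cells, fell from 6.69 ± 1.48 to 3.97 ± 0.645 CPM (edgeR, adjusted p = 0.0027), and Sox12 fell from 12.9 ± 0.836 to 10.28 ± 1.14 CPM (edgeR, adjusted p = 0.0071). Sox5 fell by 0.76 from 2.86 CPM. The other risers were scarce: Sox1, Sox6, Sox10, Sox14, Sox15 and Sox21 averaged between 0.444 and 1.70 CPM in unstimulated cells, and log2 differences ran from 0.33 for Sox14 to 1.57 for Sox6. The call of Sox14 was lost under 13 of 26 alternatives (adjusted p of 0.0511 to 0.0947) and that of Sox10 under 3 (0.0566 to 0.0658), among them the fits without 100 ng/mL library D or E. Sox8 and Sox11 did not pass, at 0.708 and 5.41 CPM in unstimulated cells, and Sry, Sox2, Sox3 and Sox30 were below the filter. In the comparison of 100 with 10 ng/mL, 3 other Sox genes rose and 3 fell, against 19.9% and 20.6% of all tested genes. Without unstimulated library A, which belongs to neither group, 5 rose, with Sox1 and Sox21 added (edgeR, adjusted p = 0.0300 and 0.0439).

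**Figure D4:**
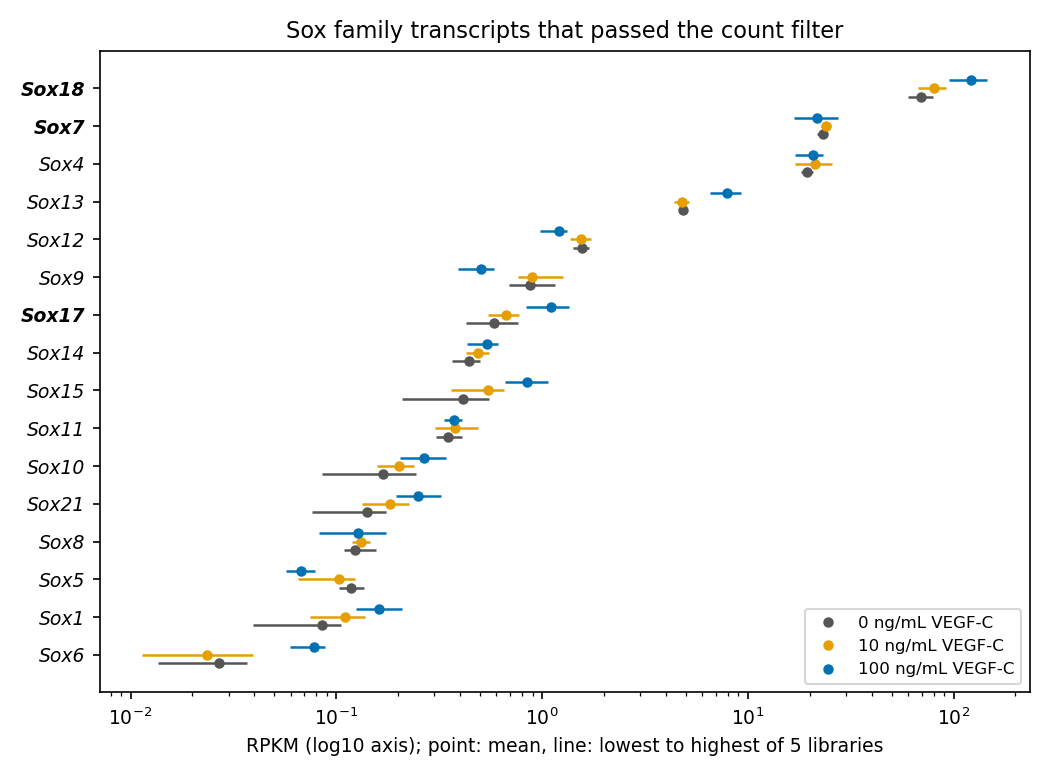
RPKM of the 16 Sox genes that passed the count filter (log10 axis), ordered by the unstimulated mean; points are means and lines run from the lowest to the highest of 5 libraries in each dose group, with SoxF members in bold. Sox18 is the highest of the family, Sox7 and Sox4 lie near each other below it, and Sox17 lies more than a factor of 10 below them.

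Genes named in work on SoxF targets and functions in vessels were taken as a list of 22 vascular and arterial genes. At 100 ng/mL against unstimulated cells 21 were tested, of which 13 rose, 5 fell and 3 did not pass. The median log2 difference was 0.46, against 0.008 for all genes, of which 21.4% rose and 21.5% fell. The receptor Kdr rose from 309.6 ± 62.7 to 965 ± 134 CPM, or by 1.64 ± 0.14 (edgeR, adjusted p = 3.45e-07). In the Notch pathway, which patterns arteries and tip cells, the ligand Dll4 had a log2 rise of 2.76 ± 0.24 (28.5 ± 8.69 to 193 ± 56.2 CPM, adjusted p = 4.89e-07) and the receptor Notch1 one of 0.44 ± 0.07 (234 ± 17.2 to 318 ± 29.9 CPM, adjusted p = 0.000233). Of the junction genes, Cdh5 (VE-cadherin) rose from 2162 ± 87.6 to 3450.0 ± 353 CPM (0.67 ± 0.07) and Cldn5 (claudin-5) from 204 ± 82.0 to 758 ± 326 CPM (1.90 ± 0.38, adjusted p = 0.000883), with Cldn5 overlapping between the groups. Not all listed genes went with Sox17 and Sox18. Efnb2, the arterial ligand ephrin-B2, fell from 253 ± 22 to 119 ± 16.2 CPM (-1.10 ± 0.09, adjusted p = 2.29e-07). Vcam1, a leukocyte adhesion molecule that fibroblastic cells carry too, fell from 199.8 ± 87.8 to 20.9 ± 12.2 CPM (-3.26 ± 0.42, adjusted p = 2.16e-05). Over 10 ng/mL 12 listed genes rose and 4 fell, against 19.9% and 20.6% of all tested genes. At 10 ng/mL against unstimulated cells none of the 21 was called in edgeR.

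The promoters of these genes were searched for a classical Sox motif. The letters AACAAT and AACAAAG were searched on both strands in the 250 bases before each start in the RefSeq promoter table (GRCm38.p6), where the motifs do not overlap each other. Of all 32851 promoters 9.42% held the first, 5.03% the second and 13.8% either. Of 34 promoters of 28 of the 33 vascular and lymphatic list genes, 3 held the first, 2 the second and 4 (11.8%) either, a share near that of all promoters. Of those 4, 2 belong to Mmp7, a gene below the count filter. Tek, the angiopoietin receptor Tie2, was the 1 promoter with both, and is shown for that reason, chosen after the search. It held AACAAT on the minus strand 63 bases and AACAAAG on the plus strand 27 bases before the start. Its 250 bases (chr4:94739039-94739288, plus strand, motifs in capitals) read as follows.
Tek: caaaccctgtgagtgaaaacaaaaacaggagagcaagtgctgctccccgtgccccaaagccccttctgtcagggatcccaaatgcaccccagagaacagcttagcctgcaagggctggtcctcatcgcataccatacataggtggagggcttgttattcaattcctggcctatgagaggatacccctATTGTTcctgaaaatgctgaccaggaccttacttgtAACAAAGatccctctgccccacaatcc
Tek transcript was at 160.5 ± 11.3 CPM in unstimulated cells and 229.6 ± 22.3 at 100 ng/mL (log2 difference 0.52 ± 0.08, edgeR adjusted p = 9.54e-05). The table matched none of the 3 SoxF genes. A match is a description of letters only.

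Of 11 lymphatic specification genes, all tested, 5 rose, 3 fell and 3 did not pass at 100 ng/mL against unstimulated cells. Their median log2 difference was 0.85, against 0.008 for all tested genes, of which 21.4% rose and 21.5% fell. Prox1, the best known Sox18 target, was at 242.5 ± 106 CPM in unstimulated cells, 278 ± 95.4 at 10 ng/mL and 478 ± 243 at 100 ng/mL. Its groups overlapped, from 102 to 323 and from 193 to 814 CPM, and the log2 difference of 0.98 ± 0.40 did not pass (edgeR, adjusted p = 0.0589). When library B at 100 ng/mL was left out it passed, at 1.17 (edgeR, adjusted p = 0.0185), as it did in the DESeq2 Wald test (0.97, adjusted p = 0.0343). Nr2f2 (COUP-TFII), which acts beside Sox18 on Prox1, rose from 118 ± 20.4 to 226 ± 33.9 CPM (0.94 ± 0.13, edgeR adjusted p = 3.49e-05). Flt4 rose by 1.36 ± 0.12 and Itga9, an integrin of lymphatic valves, by 3.04 ± 0.24. Gata2, a factor of valve formation, fell by 1.33 on the log2 scale from 117 ± 15.6 CPM. Foxc2 fell from 47.4 ± 8.16 to 25.4 ± 1.86 CPM (-0.90 ± 0.11, edgeR adjusted p = 1.3e-05). Hhex fell by -0.65 ± 0.08 (edgeR, adjusted p = 1.29e-05). Over the 15 libraries log2 CPM of Prox1 had an r of 0.706 with Sox18, 0.597 with Sox17 and -0.505 with Sox7. After group means were taken off, these were 0.601, 0.321 and -0.468. For 100 against 10 ng/mL 5 of the 11 rose and 3 fell, against 19.9% and 20.6% of all tested genes. None of the 11 was called in edgeR between 10 ng/mL and unstimulated cells.

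Partners of SoxF proteins and factors upstream of their genes made up a list of 25, of which 22 were tested. At 100 ng/mL against unstimulated cells 11 rose, 8 fell and 3 did not pass, with a median of 0.24. Of all tested genes 21.4% rose and 21.5% fell, with a median of 0.008. Mef2c, whose protein binds Sox18, rose from 23.4 ± 4.83 to 119.5 ± 17.3 CPM (2.35 ± 0.16, edgeR adjusted p = 4.27e-08). Rbpj, the DNA-binding partner of Notch, fell from 70.8 ± 6.09 to 46.4 ± 5.12 CPM (-0.61 ± 0.07, adjusted p = 9.33e-06). The ETS repressor Etv6 fell from 165 ± 5.56 to 95.8 ± 3.43 CPM, and the forkhead factor Foxc1 from 29.6 ± 4.61 to 9.99 ± 1.98 CPM. The comparison with 10 ng/mL gave 9 higher and 8 lower, against 19.9% and 20.6% of all tested genes.

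**Figure D5:**
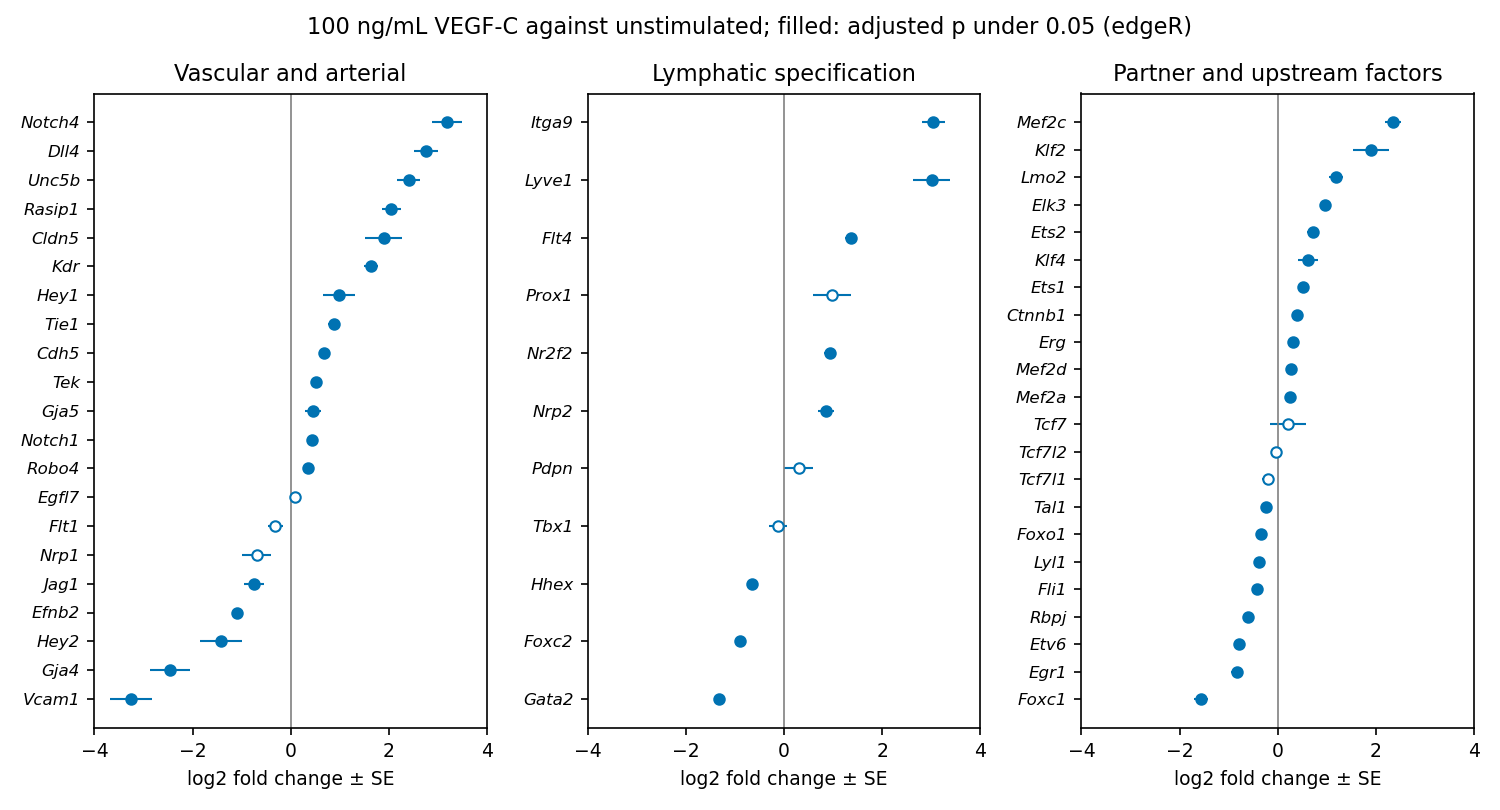
Log2 fold change with SE at 100 ng/mL against unstimulated cells for the tested genes of 3 lists; filled points passed the test (edgeR, adjusted p under 0.05). Each list holds genes in both directions, with Notch4 and Dll4 at the upper end and Vcam1 at the lower end of the vascular list.

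The ERK cascade lies between the VEGF receptors and Sox18 in textbook accounts. All 19 listed genes of this route were tested, of which 9 rose, 4 fell and 6 did not pass at 100 ng/mL against unstimulated cells. Their median was 0.30, against 0.008 for all tested genes, of which 21.4% rose and 21.5% fell. Nras, a switch of the cascade, rose from 158 ± 4.75 to 202 ± 7.24 CPM (0.35 ± 0.04), and the feedback phosphatase Dusp6 from 145 ± 6.22 to 259 ± 33.1 CPM (0.84 ± 0.08, edgeR adjusted p = 2.03e-06). The comparison with 10 ng/mL gave 11 higher and 3 lower, against 19.9% and 20.6% of all tested genes.

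Sox7 and Sox17 are known to restrain Wnt signalling, and 10 of 14 listed Wnt targets and regulators were tested. None rose and 4 fell at 100 ng/mL against unstimulated cells, with a median of -0.45, and 6 did not pass. Of all tested genes 21.4% rose and 21.5% fell, with a median of 0.008. Those that fell were Dkk3 (6.90 ± 1.97 to 1.71 ± 0.468 CPM), Apcdd1 (4.43 ± 2.04 to 0.814 ± 0.237 CPM), Sp5 (41.0 ± 16.6 to 6.92 ± 6.61 CPM) and the antagonist Dkk2 (8.92 ± 4.59 to 3.68 ± 1.07 CPM). In the comparison of 100 with 10 ng/mL 0 rose and 5 fell, with a median of -0.65, against 19.9% and 20.6% of all tested genes. The fifth was the Wnt target Axin2, at -1.01 (edgeR, adjusted p = 0.0117). Against unstimulated cells Axin2 was at -0.71 and did not pass (edgeR, adjusted p = 0.0691). Dkk3 and Apcdd1 too encode antagonists or modulators of the pathway rather than activators. The fibroblastic marker sum given above fell over the same libraries, and its part was not tested. Across all 6 lists, 10 ng/mL against unstimulated cells gave 0 calls in edgeR.

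The genes most like each member were sought among 11374 named genes whose log2 CPM averaged 1 or more, by Pearson r over the 15 libraries. For Sox18 these were Ddi2 (0.973), Igfbp4 (0.967) and Nin (0.966), and for Sox17 Shank3 (0.968), Nf1 (0.947) and Nova2 (0.945). All 6 had their highest mean at 100 ng/mL, like the members: Igfbp4 averaged 278, 379 and 736 CPM, and Shank3 176, 198 and 284 CPM, from the unstimulated to the highest dose. For Sox7 they were Actn4 (0.883), Tns3 (0.868) and Dusp16 (0.842), which like Sox7 were lowest in mean at 100 ng/mL: Actn4 averaged 826, 843 and 740.0 CPM. After group means were taken off, the likest were Zbtb34, Unc13d and Phf12 for Sox18 (0.952, 0.933 and 0.932), Setd1b, Toporsos and Zbtb26 for Sox17 (0.902, 0.890 and 0.883), and Tnfaip1, Ppap2c and Actn4 for Sox7 (0.938, 0.919 and 0.913). Only Actn4 was among the top 3 by both measures. With Spearman's rho in place of Pearson's r, 0 of the 3 genes for Sox18, 1 for Sox17 and 0 for Sox7 over the 15 libraries stayed in the top 3, so the names depend on the coefficient.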

How the data were processed

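RNA was sequenced from 15 libraries of cultured lymph node LECs, 5 per group. Per the file headers, the authors deposited 1 estimated count and 1 RPKM value per gene and library. Library totals of the estimated counts lay between 27784906 and 38590841, and 64.3% of the values were fractional. Tools named in the submitters' processing notes are FastQC, Bowtie2 and limma, and builds GRCm38 and mm10. The sources used here do not give the read counter, its use of strand or how it treated multiply matching reads, so values of overlapping or related genes are uncertain. Of the named genes, 17 overlap another annotated gene, among them Sox17, Prox1, Dll4, Efnb2 and Itga9.

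Counts were rounded. In edgeR 4.0.16 (R 4.3.3), filterByExpr kept 17650 genes, TMM scaled the libraries, and 1 quasi-likelihood fit with terms for the groups alone used all 15 libraries. P-values were adjusted by the Benjamini-Hochberg method over all tested genes (threshold 0.05). Ratios of members were compared on log2 RPKM by exact permutation (scipy 1.17.1), adjusted over 9 tests. Correlations used log2 CPM with a prior count of 2.

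The members, lists and tests were chosen with earlier results of these data known. Named genes were the members, 10 targets and partners, other Sox genes with a mean of at least 1 CPM, the 3 called genes with the smallest p per list, and the 3 genes most like each member with predicted and pseudogene models left out; Tek, Dkk2, Axin2, Notch4, Mmp7, the lymphatic markers and the Sox genes below 1 CPM or the filter were named after their values were seen. Values of 1 gene among these are not reported here. Alternatives were DESeq2 1.42.0 size factors and Wald test, library size alone, no filter, 10 CPM in 5 libraries, limma-voom (limma 3.58.1), limma on log2 RPKM with pseudocounts of 1 and 0.1, only the 10 libraries compared, a replicate block and leaving out each library. Leaving out 3 libraries that stood apart, and sva 3.50.0 with 3 surrogate variables, were added after the data were seen.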

Additional observations from a re-analysis of the deposited data

Results flagged for a closer look

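In 53 genes and 159 groups of 5 libraries, 6 single libraries lay far from the other 4 of their group by Dixon's criterion, which chance meets in about 1 of 20 groups; none of the 6 was in Sox7, Sox17 or Sox18. Library B at 100 ng/mL was low for Flt4, at 1120.0 CPM against 1640.0 for the nearest, and for Notch1, at 265 against 329 CPM, and high for Sp5, at 18.5 against 5.95 CPM. Foxc1 was low in library D at 10 ng/mL, at 21.8 against 26.5 CPM. Sox9 was high in library B at 10 ng/mL, at 9.83 against 6.59 CPM. Sox1 was low in unstimulated library A, at 0.344 against 0.806 CPM.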

How the results depend on the processing

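The rises of Sox18 and Sox17 at 100 ng/mL passed the test under every alternative that gave a value. Against unstimulated cells Sox18 lay between 0.77 and 0.92 (adjusted p of at most 0.000475) and Sox17 between 0.40 and 1.06 (at most 0.00235), the lowest with log2(RPKM + 1), a scale that shrinks low genes. Sox17 was removed by the filter of 10 CPM. Sox7 against 10 ng/mL was -0.236 to -0.0545 when single libraries were left out, and passed with 3 surrogate variables (-0.17, adjusted p = 0.0159) and without 100 ng/mL library A (-0.24, adjusted p = 0.0361). The Sox17 to Sox18 ratio reversed with log2(RPKM + 1), to -0.39 for 100 ng/mL against unstimulated and -0.25 against 10 ng/mL. The 10 CPM filter left 4976 calls at 100 ng/mL against unstimulated, having fewer genes to test. For 10 ng/mL against unstimulated the DESeq2 Wald test called 10 genes, 3 surrogate variables 28, and leaving out single libraries 0 to 1; the cause was not tested.

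Library letters did not pair the groups: same-lettered libraries correlated between -0.342 and 0.132 after group means were taken off. None correlated best with its own letter. Under other letters, unstimulated A, B, C, D and E correlated best with E, A, B, C and D at 10 ng/mL (0.487 to 0.786). The 10 ng/mL libraries A to E did so with D, E, A, B and C at 100 ng/mL (0.21 to 0.428). Between the unstimulated and 100 ng/mL groups, A and B both did so with C. The labels do not give such a pairing, no fit used it, and it was not tested. With the letter as a replicate block Sox18 was 0.85 (edgeR, adjusted p = 0.000475) and Sox17 0.95 (adjusted p = 0.00235) against unstimulated, and 7069 genes were called. This block does not follow the best matches, so it cannot show what pairing would change. For the ratios the block leaves only sign flips of 5 pairs, which cannot pass: Sox17 to Sox7 at 1.03 and 0.87 and Sox7 to Sox18 at -0.91 and -0.74 all had an adjusted p of 0.113. Shares of the SoxF sum computed from estimated counts, without division by length, put Sox18 at 58.7, 61.3 and 71.9% with rising dose. Depth limits mainly Sox17 and the Sox genes near 1 CPM.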
